A study of Mus musculus with 19 samples.

Results

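Caveolae are flask-shaped pits of the plasma membrane, and the 9 genes described here encode parts of their coat, the diaphragm that spans their neck, and the EHD ATPases that act on curved membranes. They are Cav1, Cav2, Cavin1, Cavin2, Plvap, Ehd1, Ehd2, Ehd3 and Ehd4. The members were the probe sets that the platform annotation gives as their single symbol one of these names. All 9 were found, each with 1 probe set, among the 19938 genes measured. RNA had been prepared from endothelial cells sorted out of lymphoid tissue of adult BALB/c mice (Balb/c in the labels) aged 6 to 8 weeks, males and females mixed in equal parts in every sample. The labels give no treatment, no transgene and no mutant allele for any group. Each of the 19 samples was hybridised to 1 whole-transcript array. High endothelial cells (HEC), the tall cells of the venules where lymphocytes cross from blood into lymphoid tissue, were compared with capillary endothelial cells. From peripheral lymph nodes there were 4 arrays of HEC and 3 of capillary cells, and from Peyer's patches (organised lymphoid tissue in the wall of the gut) 3 arrays of each cell type. From mesenteric lymph nodes there were 2 arrays of capillary cells and 4 of HEC, 2 sorted by a gate positive for MAdCAM1 and PNAd and 2 by a gate positive for MAdCAM1. The first of these antigens is the mucosal addressin that gut-homing lymphocytes bind, and the second is the sulfated carbohydrate that L-selectin binds. The labels give no gate for the other sorts and do not say whether the arrays of a group were prepared from different mice or on different occasions. All p-values therefore measure the spread between these arrays, which may be technical.

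Values are log2 signals that had been centred for each gene on a baseline the sources used here do not give. They show how one gene differs between arrays. They give no absolute level, no detection and no order of level between genes. In bulk RNA of this kind, fewer cells of a type and less RNA per cell cannot be told apart. In HEC, 8 of 8 high endothelial markers were higher and 8 of 8 capillary markers were lower (limma, adjusted p under 0.05). Over the mean of tissues used here, 18% of all genes were higher and 15.9% lower. This is no independent check of the labels, because the lists were chosen with earlier results of these data known. Madcam1, a marker of the first list, also encodes an antigen that the mesenteric HEC were sorted by. The mean of the high endothelial markers lay between 3.14 and 3.71 on every HEC array. Peripheral capillary arrays 1 and 2 stood apart from the other capillary arrays in this mean, at 1.20 and 1.05 against -0.80 to 0.20, so the called results of the members that use these arrays are also given without them.

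Caveolin-1 is the membrane-embedded scaffold without which endothelial caveolae do not form, and caveolin-2 joins it in hetero-oligomers. Cavins are peripheral coat proteins: cavin-1 is required for the coat, and cavin-2 (serum deprivation response protein, Sdpr) binds phosphatidylserine and shapes the membrane. Plvap builds the diaphragms of caveolae, fenestrae and transendothelial channels. EHD proteins are dynamin-like ATPases. Ehd2 forms a ring at the caveolar neck and holds caveolae at the surface, while Ehd1, Ehd3 and Ehd4 are known mainly for recycling from endosomes. In blood vessels caveolae carry lipid and protein, buffer membrane tension and hold signalling proteins such as endothelial nitric oxide synthase.

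Positions are those of RefSeq genes on GRCm38.p6. Cav2 lies at chr6:17281185-17289130 and Cav1 at chr6:17306335-17341328, with 17204 bases and 0 other genes between them. Cavin1 lies at chr11:100956736-100970617, Cavin2 at chr1:51289126-51302960 and Plvap at chr8:71497753-71511806. Ehd1 lies at chr19:6276896-6300096, Ehd2 at chr7:15946963-15967535, Ehd3 at chr17:73804841-73832093 and Ehd4 at chr2:120089487-120154575.

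Upstream sequence is shown for 4 members: Cavin2 and Ehd3, which differed most between HEC and capillary cells in opposite directions, and the neighbours Cav1 and Cav2, which differed in the same direction by unequal amounts. Each run is the 250 bases before the gene's start (the first of the starts listed for Cav1), from RefSeq on GRCm38.p6, plus strand, 5′ to 3′. Of the 9 members, 7 matched the promoter table. Capitals mark matches, on either strand, to 6 motifs: the GC box GGGCGG, the CCAAT box CCAAT, the TATA box TATAAA, the core TGGGAA bound by the Notch effector RBPJ, the nuclear receptor half-site AGGTCA and the AP-1 motif TGACTCA. None of the matches printed overlap each other. The windows are chr1:51288876-51289125 for Cavin2, chr17:73804591-73804840 for Ehd3, chr6:17306085-17306334 for Cav1 and chr6:17280935-17281184 for Cav2.
Cavin2: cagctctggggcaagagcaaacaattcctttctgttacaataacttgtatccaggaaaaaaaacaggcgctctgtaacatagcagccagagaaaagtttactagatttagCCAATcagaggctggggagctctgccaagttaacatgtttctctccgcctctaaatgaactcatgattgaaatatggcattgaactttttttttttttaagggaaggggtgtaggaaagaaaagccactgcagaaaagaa
Ehd3: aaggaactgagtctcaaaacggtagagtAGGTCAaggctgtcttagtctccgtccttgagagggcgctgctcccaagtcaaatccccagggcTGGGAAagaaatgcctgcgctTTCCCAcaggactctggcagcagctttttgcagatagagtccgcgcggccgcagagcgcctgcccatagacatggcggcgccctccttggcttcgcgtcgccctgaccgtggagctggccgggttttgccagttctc
Cav1: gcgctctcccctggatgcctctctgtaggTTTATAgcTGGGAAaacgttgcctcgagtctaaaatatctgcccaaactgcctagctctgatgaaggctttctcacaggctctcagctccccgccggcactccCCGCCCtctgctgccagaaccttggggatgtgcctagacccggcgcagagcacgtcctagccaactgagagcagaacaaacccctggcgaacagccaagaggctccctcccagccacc
Cav2: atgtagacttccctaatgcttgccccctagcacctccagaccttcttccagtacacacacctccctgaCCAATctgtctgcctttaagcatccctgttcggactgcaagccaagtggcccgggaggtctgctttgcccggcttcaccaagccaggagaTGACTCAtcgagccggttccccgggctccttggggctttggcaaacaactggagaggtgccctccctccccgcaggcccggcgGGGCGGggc

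The Cavin2 window had 1 match, a CCAAT box 140 bases before the start, and 40.4% G and C, against a median of 52.4% over 32851 promoter windows. The Ehd3 window, 60.0% G and C, held the core TGGGAA at 158 bases and, on the minus strand, at 137 bases before the start, and the half-site AGGTCA at 222 bases. Cav1 (59.6% G and C) had TATAAA on the minus strand at 221, TGGGAA at 213 and a GC box on the minus strand at 118 bases, and Cav2 (62.0%) had a CCAAT box at 182, the AP-1 motif at 92 and a GC box at 9 bases. The neighbours thus shared only the GC box among the letters searched. Of all windows of this length, 32.7% held a GC box, 33.8% a CCAAT box, 12.4% TATAAA, 21.6% TGGGAA, 14.0% AGGTCA and 4.46% the AP-1 motif. Such matches describe letters and do not show that a factor binds.

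Against capillary cells, taking the mean of the 3 tissues, HEC had lower signal of Cav1, Cav2, Cavin1, Cavin2, Plvap and Ehd2, and higher signal of Ehd3. Cavin2 was 4.27-fold lower and Ehd3 was 10.7-fold higher, while Cav2 was 1.90-fold lower and the falls of Cavin1, Cav1, Ehd2 and Plvap lay between 1.23-fold and 1.43-fold. On the log2 scale the difference was -2.10 ± 0.15 for Cavin2 (SE of the limma fit, adjusted p = 3.4e-09), 3.42 ± 0.21 for Ehd3 (adjusted p = 4.9e-10) and -0.93 ± 0.10 for Cav2 (adjusted p = 4.6e-07). It was -0.51 ± 0.06 for Cavin1 (limma, adjusted p = 5.3e-06), -0.50 ± 0.06 for Cav1 (adjusted p = 8.6e-06) and -0.29 ± 0.05 for Plvap (adjusted p = 8.2e-05). Ehd1 (-0.13 ± 0.12, limma, adjusted p = 0.45) and Ehd4 did not pass the test. In limma with Benjamini-Hochberg adjustment over all genes, 1 member of 9 was higher and 6 were lower, where 18% of all genes were higher and 15.9% lower. Without peripheral capillary arrays 1 and 2, Cavin2 (-2.13), Cav2 (-0.96), Cavin1 (-0.45), Cav1 (-0.43), Plvap (-0.29) and Ehd3 were still called. The median log2 difference was -0.37 over the members and -0.01 over all genes. In the order of group means, the 3 capillary groups took the first places for Cav1, Cav2, Cavin1, Cavin2 and Plvap, and the ranges of neighbouring capillary groups overlapped except for Cavin2. The HEC groups took the first places for Ehd3, with means of 2.79 to 3.16, and it passed no test between HEC of different tissues. Neither such an order nor the lack of overlap described below was counted over all genes.

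**Figure D1:**
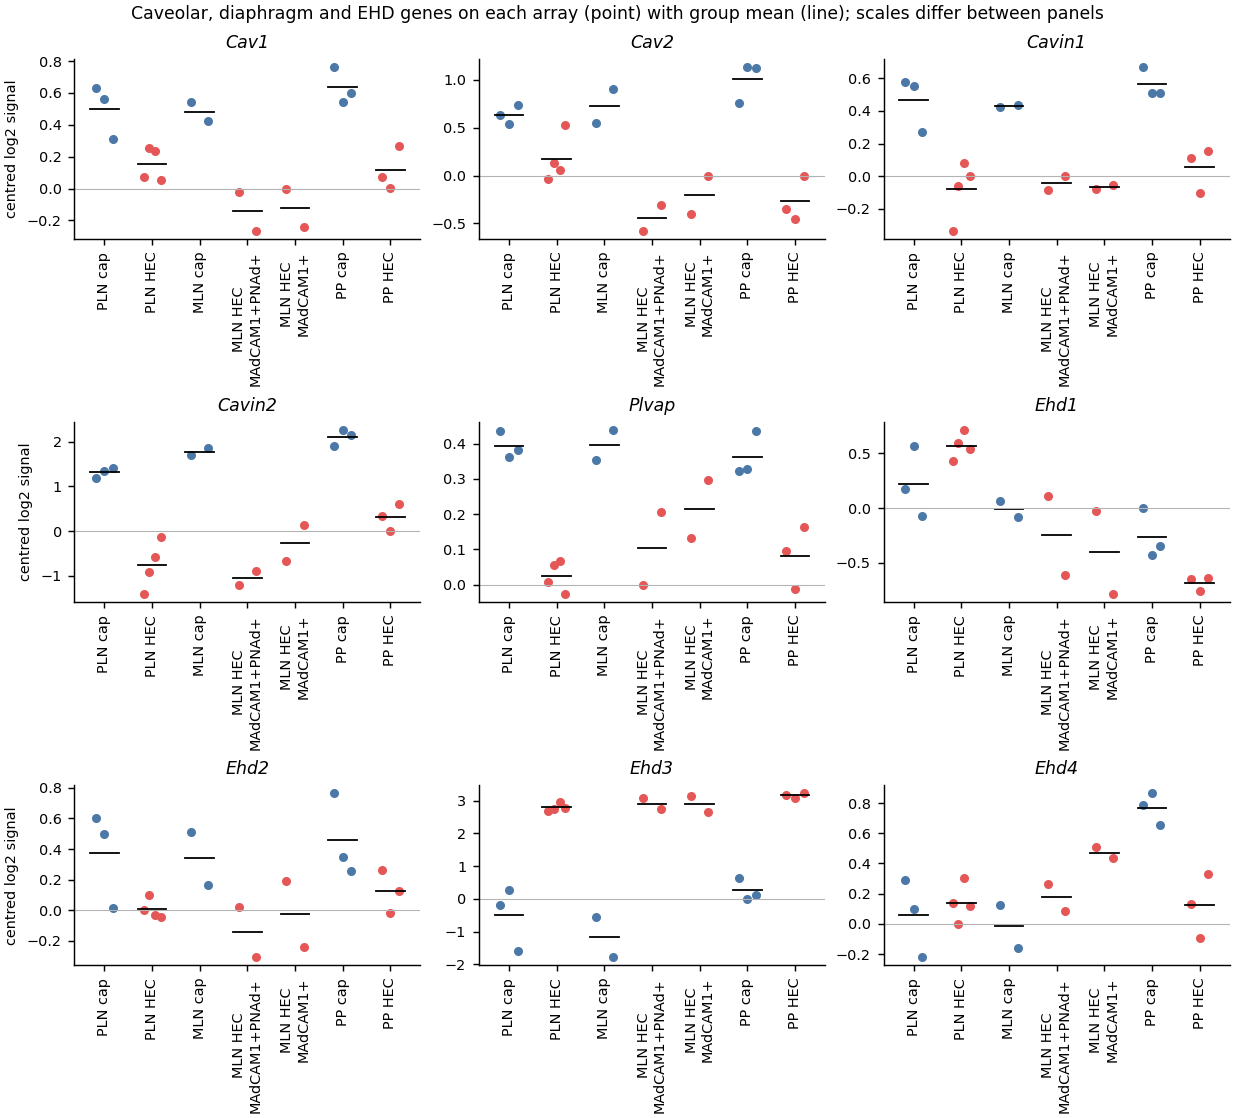
Each panel plots 1 gene: the y axis is the centred log2 signal, each point is 1 of 19 arrays (blue capillary, red HEC), and the black line is the group mean (n of 2 to 4 arrays). Cap stands for capillary, PLN for peripheral node, MLN for mesenteric node and PP for Peyer's patch. Every red point lies below every blue point for Cav1, Cav2, Cavin1, Cavin2 and Plvap and above every blue point for Ehd3, with scales that differ between panels. How common such separation is among all genes was not counted.

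Cavin2 had the widest fall of the caveolar genes. In peripheral nodes its capillary values were 1.18, 1.34 and 1.42, and its HEC values were -1.40, -0.90, -0.59 and -0.13. In the mesenteric nodes they were 1.70 and 1.85 in capillary cells, -1.21 and -0.89 in the MAdCAM1+ PNAd+ gate and -0.67 and 0.14 in the MAdCAM1+ gate. In Peyer's patches they were 1.90, 2.25 and 2.15 in capillary cells and 0.34, 0 and 0.60 in HEC. No HEC array reached a capillary array in any tissue: the highest HEC value, in Peyer's patches, was 0.60, and the lowest capillary value, in peripheral nodes, was 1.18. The log2 difference was -2.07 ± 0.24 in peripheral nodes (SE of the limma fit, adjusted p = 4.6e-06), -2.43 ± 0.27 in the mesenteric nodes (adjusted p = 4e-06) and -1.79 ± 0.26 in Peyer's patches (adjusted p = 4.9e-05). Each exceeded the spread between arrays, and without peripheral capillary arrays 1 and 2 the peripheral difference was -2.17.

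Cavin1, the obligate cavin, fell by far less. Its peripheral values were 0.58, 0.55 and 0.27 in capillary cells and -0.33, -0.06, 0.08 and 0 in HEC. Its capillary arrays lay between 0.27 and 0.67 over all tissues and its HEC arrays between -0.33 and 0.15, so the groups did not overlap. The differences were close in size in peripheral nodes (-0.54 ± 0.10, adjusted p = 0.00087), mesenteric nodes (-0.48 ± 0.12, adjusted p = 0.0081) and Peyer's patches (-0.51 ± 0.11, adjusted p = 0.0029), all from limma. The mesenteric call was lost without mesenteric capillary array 1 (adjusted p = 0.0719) or 2 (adjusted p = 0.0670), and the peripheral call without peripheral capillary arrays 1 and 2 (-0.35, adjusted p = 0.14).

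Cav1 and Cav2 fell in every tissue, Cav2 with the wider range. Cav2 read 0.64, 0.54 and 0.73 in peripheral capillary cells and -0.03, 0.13, 0.06 and 0.52 in peripheral HEC. In the mesenteric nodes it read 0.55 and 0.90 in capillary cells, -0.58 and -0.30 in the MAdCAM1+ PNAd+ gate and -0.40 and -0.0092 in the MAdCAM1+ gate. In Peyer's patches it read 0.75, 1.13 and 1.13 in capillary cells and -0.35, -0.45 and 0 in HEC. Peripheral HEC array 4, at 0.52, lay just under the lowest capillary array, at 0.54, and the other HEC arrays lay at 0.13 or lower. The log2 difference of Cav2 was -0.47 ± 0.15 in peripheral nodes (limma, adjusted p = 0.036), -1.05 ± 0.18 in the mesenteric nodes (adjusted p = 0.00032) and -1.27 ± 0.17 in Peyer's patches (adjusted p = 1.8e-05).

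Cav1 fell by 0.35 ± 0.10 on the log2 scale in peripheral nodes (limma, adjusted p = 0.022), by 0.62 ± 0.12 in the mesenteric nodes (adjusted p = 0.0012) and by 0.52 ± 0.11 in Peyer's patches (adjusted p = 0.0025). Its peripheral arrays read 0.63, 0.56 and 0.31 in capillary cells and 0.08, 0.25, 0.23 and 0.05 in HEC. Over all tissues the capillary arrays ran from 0.31 to 0.76 and the HEC arrays from -0.27 to 0.27. The gap between the nearest arrays of the 2 cell types was thus narrow. The peripheral calls of Cav1 and Cav2 depended on single arrays. That of Cav1 was lost without peripheral capillary array 1 or 2 or HEC array 1 or 4 (limma, adjusted p = 0.0849, 0.0932, 0.0576 and 0.0647), and without capillary arrays 1 and 2 together the difference was -0.16 (adjusted p = 0.54). That of Cav2 was lost without any 1 of the 3 capillary arrays or without HEC array 1, 2 or 3 (limma, adjusted p from 0.0634 to 0.123), and was -0.56 (adjusted p = 0.15) without capillary arrays 1 and 2.

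Plvap, the diaphragm protein and target of the endothelial antibody MECA-32, was lower in HEC by a small amount. Its capillary arrays read 0.44, 0.36 and 0.38 in peripheral nodes, 0.35 and 0.44 in the mesenteric nodes and, for Peyer's patches, 0.32, 0.33 and 0.43. HEC arrays read 0.0073, 0.06, 0.07 and -0.03 in peripheral nodes and 0.10, -0.01 and 0.16 in Peyer's patches. Mesenteric HEC read 0 and 0.21 in the MAdCAM1+ PNAd+ gate and 0.13 and 0.30 in the MAdCAM1+ gate, so the highest HEC arrays were mesenteric and still lay under the lowest capillary array. The log2 difference passed the test in peripheral nodes (-0.37 ± 0.08, limma, adjusted p = 0.0019) and in Peyer's patches (-0.28 ± 0.08, adjusted p = 0.022), and did not in the mesenteric nodes (-0.24 ± 0.09, adjusted p = 0.083). The Peyer's patch call was lost without capillary array 3 (limma, adjusted p = 0.0929), HEC array 1 (0.0510) or HEC array 2 (0.0704), and in a fit of those groups alone (adjusted p = 0.17). The peripheral difference was -0.36 (limma, adjusted p = 0.0639) without capillary arrays 1 and 2.

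Ehd3, an endosomal recycling EHD protein, was the member that rose. HEC arrays were nearly level with one another: 2.69, 2.74, 2.96 and 2.76 in peripheral nodes, 3.07 and 2.73 in the mesenteric MAdCAM1+ PNAd+ gate, 3.14 and 2.64 in the MAdCAM1+ gate, and 3.18, 3.08 and 3.22 in Peyer's patches. Capillary arrays were lower and far more scattered, at -0.18, 0.27 and -1.61 in peripheral nodes, -0.55 and -1.78 in the mesenteric nodes and, for Peyer's patches, 0.65, 0 and 0.11. The lowest HEC array, at 2.64, stood well above the highest capillary array, at 0.65. The log2 difference was 3.30 ± 0.34 in peripheral nodes (limma, adjusted p = 1.1e-06), 4.06 ± 0.38 in the mesenteric nodes (adjusted p = 5.5e-07) and 2.91 ± 0.36 in Peyer's patches (adjusted p = 1.1e-05). These correspond to 9.83-fold, 16.7-fold and 7.50-fold. Peripheral capillary arrays 1 and 2, which had the higher means of high endothelial markers, were also the higher peripheral capillary arrays for Ehd3. Without them the peripheral difference was 4.40 and the mean of tissues 3.79, both still called. Across tissues the order of capillary arrays differed. Peyer's patch capillary arrays had the lowest means of high endothelial markers, at -0.80 to -0.28, and were the highest capillary group for Ehd3, at 0 to 0.65. The part of other cells in the level of Ehd3 on capillary arrays was not tested.

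**Figure D2:**
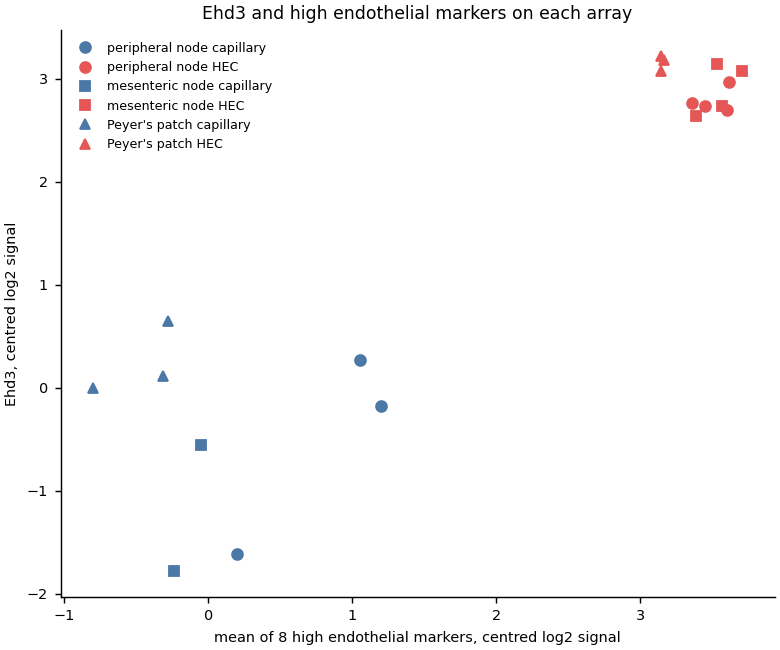
Each point is 1 of 19 arrays: the x axis is the mean centred log2 signal of 8 high endothelial markers and the y axis the centred log2 signal of Ehd3 (red HEC, blue capillary, shape by tissue). HEC arrays sit together at 2.64 to 3.22 on the y axis, capillary arrays spread from -1.78 to 0.65, and peripheral capillary arrays 1 and 2 lie to the right of the other capillary arrays. Peyer's patch capillary arrays lie furthest to the left, at 0 to 0.65 on the y axis.

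Ehd2, the EHD protein of the caveolar neck, was lower in HEC over the mean of tissues and passed the test in no tissue alone. Its capillary arrays read 0.60, 0.50 and 0.01 in peripheral nodes, 0.51 and 0.17 in the mesenteric nodes and, for Peyer's patches, 0.76, 0.35 and 0.26. Its HEC arrays ran from -0.31 to 0.26 with a median of 0. The 2 cell types overlapped in each tissue. The log2 difference was -0.37 ± 0.10 over tissues (limma, adjusted p = 0.0057), and -0.36 ± 0.16, -0.42 ± 0.18 and -0.33 ± 0.17 in the peripheral nodes, the mesenteric nodes and Peyer's patches (adjusted p = 0.10, 0.14 and 0.21). Without peripheral capillary arrays 1 and 2 the mean of tissues was -0.25 (limma, adjusted p = 0.0730), past the threshold no longer.

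Ehd1, which drives exit from the recycling endosome, did not pass the test between HEC and capillary cells in any tissue. The log2 difference was 0.35 ± 0.19 in peripheral nodes (limma, adjusted p = 0.19), -0.32 ± 0.22 in the mesenteric nodes (adjusted p = 0.43) and -0.42 ± 0.20 in Peyer's patches (adjusted p = 0.18), with a 95% interval over tissues from -0.38 to 0.12. Its HEC values separated peripheral nodes from the other tissues. Peripheral HEC read 0.43, 0.60, 0.71 and 0.54, Peyer's patch HEC read -0.65, -0.76 and -0.64, and the mesenteric HEC arrays read 0.11 and -0.61 in the MAdCAM1+ PNAd+ gate and -0.02 and -0.79 in the MAdCAM1+ gate. Capillary arrays read 0.18, 0.57 and -0.07 in peripheral nodes, 0.07 and -0.08 in the mesenteric nodes and, for Peyer's patches, 0, -0.43 and -0.35. No peripheral HEC array overlapped HEC of the other 2 tissues.

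Ehd4, a relative of Ehd1 also found on early endosomes, differed between the cell types in Peyer's patches. There the capillary arrays read 0.79, 0.86 and 0.65 and the HEC arrays 0.13, -0.09 and 0.33, a log2 difference of -0.64 ± 0.13 (limma, adjusted p = 0.0020). In peripheral nodes capillary arrays read 0.29, 0.10 and -0.22 and HEC arrays 0.14, 0, 0.31 and 0.12, a difference of 0.08 ± 0.13 (adjusted p = 0.67). In the mesenteric nodes capillary arrays read 0.13 and -0.16 and HEC arrays 0.27 and 0.09 in the MAdCAM1+ PNAd+ gate and 0.51 and 0.43 in the MAdCAM1+ gate, a difference of 0.34 ± 0.14 (adjusted p = 0.14). Peyer's patch capillary cells were the group that stood apart: all 3 of their arrays lay above the other 16. Over tissues the difference was -0.07 ± 0.08 (limma, adjusted p = 0.53), and it changed sign, to 0.02 (adjusted p = 0.90), without peripheral capillary arrays 1 and 2.

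By tissue, 1 member was higher and 5 lower of 9 in peripheral nodes, where 13.1% of all genes were higher and 11.4% lower. In the mesenteric nodes 1 was higher and 4 lower, against 7.87% and 7.31% of all genes. In Peyer's patches 1 was higher and 6 lower, against 8.9% and 10.6%. Ehd3, Cav1, Cav2, Cavin1 and Cavin2 were called in each of the 3, while Plvap was called in 2 and Ehd4 in 1. The call of 6 members in peripheral nodes became 2, Cavin2 and Ehd3, without capillary arrays 1 and 2, which leaves 1 capillary array there, assumed to vary like the other groups. The genes called among all 19938 became 2655 in that fit, from 4897.

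**Figure D3:**
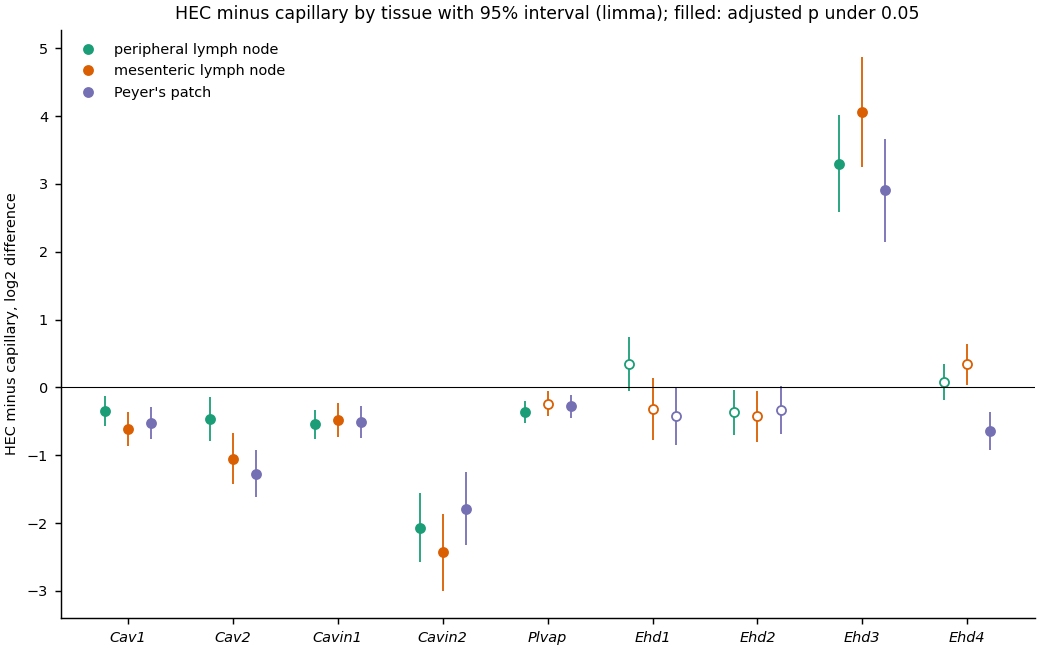
Log2 difference of HEC minus capillary cells (y axis) for the 9 genes (x axis) in peripheral nodes (green), mesenteric nodes (orange) and Peyer's patches (purple), with 95% intervals of the limma fit. Filled points passed an adjusted p of 0.05. Ehd3 lies at 2.91 to 4.06 and Cavin2 at -2.43 to -1.79 in the 3 tissues, and Ehd4 is on opposite sides of 0 in the mesenteric nodes and Peyer's patches.

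Members that are partners or relatives were then set against each other within each array. This asks whether the signals of 2 genes moved by unequal amounts, and not whether their RNA did. Of 10 pairs, 5 passed an exact permutation test (two-sided, cell type labels exchanged within tissues, 10500 arrangements, smallest possible p 9.52e-05, Benjamini-Hochberg over the 10 pairs). HEC minus capillary, Cavin1 minus Cavin2 was 1.58 higher on the log2 scale (exact permutation test, adjusted p = 0.000238). The signal of Cavin2 thus fell further than that of Cavin1. Cav1 minus Cav2 was 0.43 higher (exact permutation test, adjusted p = 0.0282), with 0.12 in peripheral nodes, 0.43 in the mesenteric nodes and 0.75 in Peyer's patches. That call was lost without mesenteric capillary array 2 (exact permutation test, adjusted p = 0.0735), peripheral capillary array 3 (0.0511) or Peyer's patch HEC array 2 (0.0503), and was 0.53 (0.012) without peripheral capillary arrays 1 and 2. Ehd3 differed from each of its 3 relatives: Ehd1 minus Ehd3 was -3.55, Ehd2 minus Ehd3 was -3.80 and Ehd3 minus Ehd4 was 3.50, each at an adjusted p of 0.000238 in the exact permutation test, which is the value that the smallest possible p gives here. Without peripheral capillary arrays 1 and 2 these 3 values were -3.82, -4.04 and 3.77 and Cavin1 minus Cavin2 was 1.68, all still called (exact permutation test, adjusted p = 0.0017 each).

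Pairs that did not pass were Cav1 minus Cavin1 (0.02, exact permutation test, adjusted p = 0.79), Cav1 minus Plvap (-0.20, adjusted p = 0.0535), Ehd1 minus Ehd2 (0.24, adjusted p = 0.0682), Ehd2 minus Ehd4 (-0.30, adjusted p = 0.0682) and Ehd1 minus Ehd4 (-0.06, adjusted p = 0.79). Cav1 minus Plvap passed without any 1 of array 1 of the mesenteric MAdCAM1+ PNAd+ gate, peripheral capillary array 3, peripheral HEC array 2, Peyer's patch capillary array 3 and Peyer's patch HEC array 3 (exact permutation test, adjusted p from 0.0173 to 0.0498), and was -0.14 (0.218) without peripheral capillary arrays 1 and 2. Ehd1 minus Ehd2 passed without array 4 of the MAdCAM1+ gate (exact permutation test, adjusted p = 0.0362) or Peyer's patch capillary array 3 (0.0487), and Ehd2 minus Ehd4 without Peyer's patch capillary array 2 (0.0435). Cav1 and Cavin1, the 2 obligate coat genes, tracked each other closely on capillary arrays, where their difference ran from -0.0080 to 0.12, and less so on HEC arrays, where it ran from -0.27 to 0.41. Both ranges are differences between centred values and carry no order of level between the genes.

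**Figure D4:**
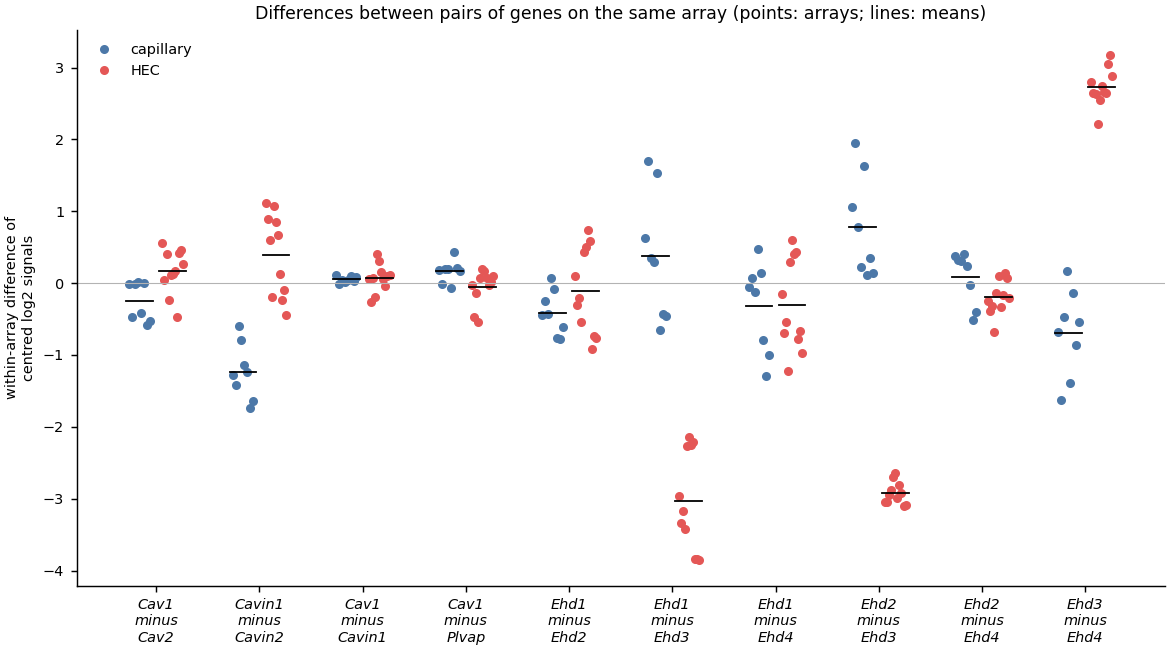
The y axis is the difference between the centred log2 signals of 2 genes on the same array, for the 10 pairs named on the x axis. Points are arrays (blue, 8 capillary, red, 11 HEC) and lines are means. The 3 pairs with Ehd3 and the pair of cavins show red and blue points apart, while Cav1 minus Cavin1 has both colours around the same mean.

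Among HEC of the 3 tissues, Cavin2 and Ehd1 changed. From peripheral nodes to Peyer's patches, 2 of 9 members passed the test, where 6.65% of all genes did. Cavin2 was 1.07 ± 0.24 higher on the log2 scale in Peyer's patch HEC (limma, adjusted p = 0.011), or 2.10-fold, and every Peyer's patch array, at 0 to 0.60, lay above the highest peripheral array, at -0.13. Ehd1 was 1.25 ± 0.19 lower (limma, log2 difference -1.25, adjusted p = 0.00043), or 2.38-fold. The Cavin2 call was lost without Peyer's patch HEC array 1 (limma, adjusted p = 0.0508) and in a fit of the compared groups alone (0.0514). Without Peyer's patch HEC array 3, 5300 of all genes were called in place of 1326, with 3 members. Over all genes the differences between Peyer's patch HEC arrays 2 and 3 had an SD of 0.45, where every other pair of arrays within a group had at most 0.31.

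Markers of other cells moved in the same comparison. Of the epithelial list 7 of 8 were higher in Peyer's patch HEC, with a median of 0.68, among them the epithelial adhesion molecule Epcam (0.98 ± 0.11, limma, adjusted p = 1.4e-05) and the keratin Krt8 (0.99 ± 0.23, adjusted p = 0.014). The epithelial mean ran from 0.36 to 0.63 on Peyer's patch HEC arrays and from -0.28 to -0.10 on peripheral ones. B cell markers were lower in 5 of 11, with a mean of 0.17 to 0.24 against 0.61 to 0.90, and pan-endothelial markers were lower in 5 of 15 and higher in 1. The part of these cells in the values of Cavin2 and Ehd1 was not tested.

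From peripheral to mesenteric HEC, 1 of 9 members passed, Ehd1, against 2.69% of all genes. It fell by 0.90 ± 0.18 on the log2 scale (limma, adjusted p = 0.0077), or 1.86-fold. This call was lost without array 2 of the MAdCAM1+ PNAd+ gate (limma, adjusted p = 0.0558) or array 4 of the MAdCAM1+ gate (0.0512), the pair with the lower Ehd1 values, without either of which the difference was -0.72 and -0.71. Cav2 was -0.49 ± 0.14 (adjusted p = 0.086) in the same comparison, in which B cell markers were lower in 2 of 11 and epithelial markers called in 0 of 8. These 2 comparisons share the peripheral HEC arrays. Between mesenteric and Peyer's patch HEC, 0 of 9 members passed in limma, 2 had an unadjusted p under 0.05 (Cav1 and Cavin2), and 1.2% of all genes were called. Cavin2 was 0.97 ± 0.24 higher in Peyer's patches there (adjusted p = 0.062).

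Among capillary cells, Ehd4 was the member that changed. It was 0.71 ± 0.13 higher on the log2 scale in Peyer's patches than in peripheral nodes (limma, adjusted p = 0.0032), or 1.64-fold, and 0.78 ± 0.15 higher than in the mesenteric nodes (adjusted p = 0.0078), or 1.72-fold. In each comparison 1 of 9 members passed, against 4.64% and 1.86% of all genes, and both use the Peyer's patch capillary arrays. The first was 0.99 (limma, adjusted p = 0.0062) without peripheral capillary arrays 1 and 2. The second call was lost without mesenteric capillary array 2 (limma, 0.64, adjusted p = 0.200). From peripheral to Peyer's patch capillary cells, 5 of 12 markers of pericytes and smooth muscle were lower and 1 was higher, with a mean of -0.15 to 0.11 against 0.33 to 0.99. High endothelial markers were lower in 6 of 8 and higher in 1, with a mean of -0.80 to -0.28 against 0.20 to 1.20. The epithelial mean was 0.14 to 0.85 on Peyer's patch and -0.03 to 0.16 on peripheral capillary arrays, with 1 of 8 markers higher. Against mesenteric capillary cells, 3 of 12 pericyte markers were lower and 1 higher. Their part in the level of Ehd4 was not tested. Cavin2 had capillary means of 1.31, 1.77 and 2.10 in the peripheral nodes, the mesenteric nodes and Peyer's patches, and the arrays of these groups did not overlap, but its Peyer's patch to peripheral difference of 0.79 ± 0.26 did not pass (limma, adjusted p = 0.11). Mesenteric against peripheral capillary cells gave 0 of 9 members in limma, 0 also at an unadjusted p under 0.05, where 0.291% of all genes were called.

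Whether the HEC minus capillary difference itself varied between tissues was tested as an interaction. Ehd4 was the member called. Its difference was lower in Peyer's patches than in peripheral nodes by a log2 value of -0.73 ± 0.18 (limma, adjusted p = 0.034) and than in the mesenteric nodes by -0.98 ± 0.20 (adjusted p = 0.023), 1 of 9 members each, against 4.05% and 0.752% of all genes. The first call was lost without any 1 of peripheral capillary arrays 2 and 3, peripheral HEC arrays 1, 3 and 4, Peyer's patch capillary arrays 1 and 2 and Peyer's patch HEC arrays 1 and 2 (limma, adjusted p from 0.0518 to 0.0987), and the value was -1.003 (0.019) without peripheral capillary arrays 1 and 2. Without Peyer's patch HEC array 3 this interaction called 2921 of all genes in place of 808, with 2 members. Of the pericyte and smooth muscle list 6 of 12 were higher in it. The second call was lost without mesenteric capillary array 2 (limma, -0.84, adjusted p = 0.189), array 1 of the MAdCAM1+ PNAd+ gate (0.0588), Peyer's patch capillary array 2 (0.0719) or Peyer's patch HEC array 1 or 2 (0.0582 and 0.0592). Cav2 in Peyer's patches against peripheral nodes was -0.80 ± 0.23 (limma, adjusted p = 0.058). Mesenteric against peripheral nodes gave 0 of 9 members in limma, 2 at an unadjusted p under 0.05 (Cav2 and Ehd1), and 0.416% of all genes. The wider rise of Ehd3 in the mesenteric nodes and its smaller rise in Peyer's patches were therefore not shown to differ: the Peyer's patch minus mesenteric interaction was -1.16 ± 0.53 (limma, adjusted p = 0.67).

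Between the mesenteric gates, MAdCAM1+ PNAd+ minus MAdCAM1+, 0 of 9 members passed in limma, where 0.0201% of all genes were called, and 1 member, Cavin2, had an unadjusted p under 0.05. Cavin2 was -0.78 ± 0.31 (95% interval -1.44 to -0.12, adjusted p = 1.00). Ehd3 differed by 0.0098 ± 0.44 between the gates (adjusted p = 1.00), with a 95% interval from -0.92 to 0.94. With 2 arrays in each gate, changes of that size could not be told from 0. The test takes the 4 arrays as independent, and the labels do not say whether arrays of the 2 gates shared a preparation.

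Other proteins of caveolae moved in both directions. Of 11 measured genes of the caveolar neck and of other coats, 4 were higher and 2 lower in HEC (limma, adjusted p under 0.05). This was over the mean of tissues, where 18% of all genes were higher and 15.9% lower. The median was -0.02, against -0.01 over all genes. Among relatives of the members in this list, Cavin3 was 0.18 ± 0.06 higher (limma, adjusted p = 0.018), and passed in no tissue alone. Cavin4 (-0.15 ± 0.07, limma, adjusted p = 0.11) and Cav3 (-0.02 ± 0.06, adjusted p = 0.87) were not called. Dnm3, a dynamin, rose by 1.41 ± 0.07 on the log2 scale (limma, adjusted p = 2.6e-11), while the ubiquitous dynamin Dnm2, which cuts vesicle necks, was -0.40 ± 0.05 (adjusted p = 1.4e-05). Flna, the actin crosslinker that links caveolae to stress fibres, rose by 0.56 ± 0.07 (adjusted p = 5.8e-06), and Pacsin2, an F-BAR protein that sculpts the neck, rose by 0.38 ± 0.06 (adjusted p = 0.00010). Dnm3 rose in each tissue, by 1.68 ± 0.11 in peripheral nodes, 1.22 ± 0.13 in the mesenteric nodes and 1.32 ± 0.12 in Peyer's patches (limma, adjusted p = 5.5e-09, 1.6e-06 and 2.2e-07).

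Receptors and signalling proteins that sit in caveolae or cross the endothelium mostly fell: 1 was higher and 7 lower of 9 measured. Their median was -0.39, and 18% of all genes were higher and 15.9% lower. Scarb1, a receptor for high-density lipoprotein, was -1.38 ± 0.06 (limma, adjusted p = 5.2e-12), and Nos3, endothelial nitric oxide synthase, which caveolin-1 holds inactive, was -1.20 ± 0.07 (adjusted p = 1.7e-10). Acvrl1, a BMP9 receptor, was -0.70 ± 0.06 (limma, adjusted p = 2.4e-08). Scarb1 and Nos3 fell in each tissue, with log2 differences of -1.60 ± 0.10, -1.51 ± 0.11 and -1.04 ± 0.10 for Scarb1 and -1.45 ± 0.11, -0.98 ± 0.12 and -1.16 ± 0.12 for Nos3 in the peripheral nodes, the mesenteric nodes and Peyer's patches. Agtr1a, the angiotensin II receptor, was -0.43 ± 0.07 (limma, adjusted p = 0.00010). Insr, the insulin receptor, was the gene of this list that rose (0.43 ± 0.09, limma, adjusted p = 0.0017). By tissue it passed in Peyer's patches (1.09 ± 0.16, limma, adjusted p = 8.5e-05) and did not in the mesenteric nodes (0.33 ± 0.17, adjusted p = 0.27) or the peripheral nodes, where its difference was below 0 (-0.14 ± 0.15, adjusted p = 0.54).

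Of 11 measured partners of EHD proteins, 1 was higher and 4 lower, with a median of -0.10, against 18% and 15.9% of all genes. Numb, an endocytic adaptor that inhibits Notch, was -0.57 ± 0.09 (limma, adjusted p = 8.2e-05), and Rbsn, the Rab effector rabenosyn-5, was 0.48 ± 0.12 (adjusted p = 0.0041). The Rab11 effector Rab11fip2 was -0.43 ± 0.10 (limma, adjusted p = 0.0038) and Ehbp1l1, an EHD-binding protein, -0.35 ± 0.09 (adjusted p = 0.0071). Clathrin and flotillin genes serve routes of uptake other than caveolae, and 10 of them were higher and 3 lower of 19 measured over the mean of tissues, with a median of 0.18. By tissue, 2 were higher and 3 lower in peripheral nodes (median 0.26), against 13.1% and 11.4% of all genes. The mesenteric nodes had 3 higher and 2 lower (median 0.24), against 7.87% and 7.31%. Peyer's patches had 1 higher and 3 lower (median -0.05), against 8.9% and 10.6%. The falls over the mean of tissues were those of the clathrin light chain Cltb (-0.63 ± 0.09, limma, adjusted p = 1.9e-05) and the adaptors Epn2 (-0.54 ± 0.05, adjusted p = 2.1e-07) and Dab2 (-0.51 ± 0.04, adjusted p = 5.3e-08), and Eps15, a scaffold of clathrin coats, rose by 0.46 ± 0.09 (adjusted p = 0.00039).

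Markers of other cells were read beside these results. Pericyte and smooth muscle cells are rich in caveolae, and 9 of 12 of their markers were lower in HEC (2 were higher). Their mean ran from -0.15 to 0.99 on capillary arrays and from -0.76 to -0.36 on HEC arrays. It was highest in peripheral capillary array 2, at 0.99, and lowest among capillary groups in Peyer's patches, at -0.15 to 0.11. Adipocytes also hold many caveolae: 3 of 7 measured markers were lower in HEC and 4 were not called. The lower ones were Lipe (-0.37 ± 0.06, limma, adjusted p = 7.6e-05), Plin1 (-0.21 ± 0.05, 0.0015) and Plin4 (-0.18 ± 0.05, 0.0071). The adipocyte mean was 0.07 to 0.22 on capillary and -0.15 to 0.10 on HEC arrays. B cell markers were higher in HEC in 9 of 11 measured, with a mean of 0.17 to 0.90 on HEC and -0.29 to 0.16 on capillary arrays. They were lowest among HEC in Peyer's patches, at 0.17 to 0.24. Of the fibroblast list 1 of 10 was lower, of the epithelial list 1 of 8 was lower between the cell types, and of the lymphatic list 2 rose and 2 fell of 7. Pan-endothelial markers were lower in HEC in 9 of 15 and higher in 1 (Vwf), with a median of -0.45, where the members had -0.37. The pan-endothelial mean ran from 0.42 to 0.63 on capillary arrays and from -0.18 to 0.29 on HEC arrays. Of all genes, 18% were higher and 15.9% lower in this comparison. Centred values do not show which markers were at background, and the part of such cells in the members' values was not tested.

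Genes were then ranked by likeness to each member, as Pearson r of the centred values over the 19 arrays among 17479 named genes. The value describes these arrays, which share 7 groups, and has no p. Cavin2 was most like Limch1 (r = 0.97), Flt4 (0.96), which encodes VEGF receptor 3, and Fat4 (0.96). Cav1 was most like Tagln2, Sorbs2 and Rffl (r = 0.95 to 0.96), Cav2 like Katna1, Vezf1 and Samd9l (0.94 to 0.95) and Cavin1 like Lrrc8c, Apbb2 and Prdm1 (0.95 to 0.97). Plvap was most like Agrn, Rflnb and Sun2 (0.93 to 0.94). Ehd3 was most like Clu, which encodes the chaperone clusterin, Arhgdib and Hid1 (r = 0.97 each). Ehd2 was most like Prkx, Heg1 and Rbms2 (0.90 to 0.91), Ehd1 like Mvb12b, Tmco4 and Smyd2 (0.85 to 0.89) and Ehd4 like Unc13b, Ctbp2 and Sowahc (0.81 to 0.83).

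Among the members themselves, Cavin1 and Cavin2 had the highest r (0.91), which placed Cavin1 at rank 66 in the list of Cavin2. Cav1 stood at rank 13 in the list of Ehd2 (r = 0.87), the closest rank of any member to another. Cav1 and Cav2, neighbours on the chromosome, had r = 0.80. Ehd3 ran opposite to Plvap (r = -0.86), Cav2 (-0.83) and Cavin2 (-0.82), while Ehd1 and Ehd4 were near 0 with Ehd3 (-0.09 and 0.06). Once group means were taken off, a different grouping was seen. How common such r is among all genes was not counted, and in groups of 2 arrays the deviations mirror each other by construction. Cav1, Ehd1, Ehd2, Ehd3 and Ehd4 deviated together between arrays of the same group (r from 0.43 to 0.82), and Cav2 deviated with Cavin2 (0.83) and against Cav1 (-0.40) and Ehd2 (-0.59). Cavin1 was positive with Cav1 and the Ehd genes (0.35 to 0.55) and also with Cavin2 (0.48). Peripheral capillary array 3 shows this in the values above: it was the lowest of its group for Cav1, Cavin1, Ehd1, Ehd2, Ehd3 and Ehd4 and the highest for Cav2 and Cavin2. It also had the lowest mean of high endothelial markers in its group (0.20).

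**Figure D5:**
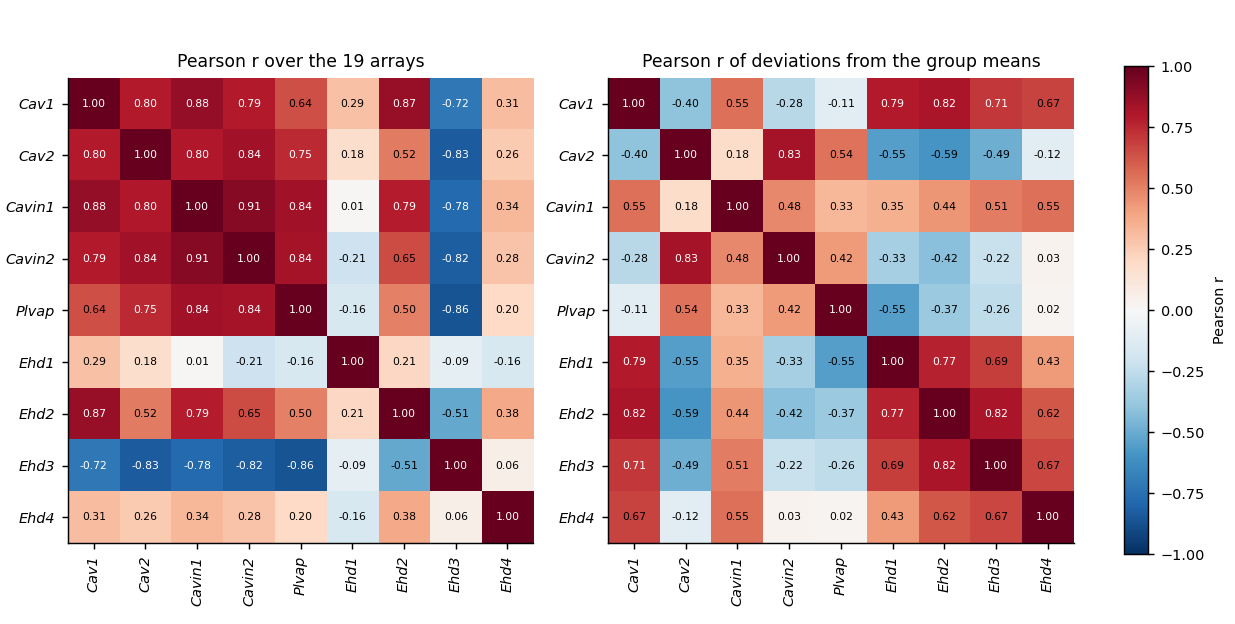
Pearson r between the 9 genes over 19 arrays (left) and between their deviations from the group means (right), with the colour scale from -1 (blue) to 1 (red). On the left the 5 genes from Cav1 to Plvap are all positive with one another and negative with Ehd3. On the right Cav1 and the 4 Ehd genes are positive with one another, and Cav2 is negative with Cav1, Ehd1, Ehd2 and Ehd3.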

How the data were processed

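Per the labels' protocols, total RNA of sorted cells was amplified and labelled for Affymetrix whole-transcript arrays. The deposited values are log2 signals. RMA and Partek are named, without versions, in the submitters' processing notes. RMA quantile-normalises arrays and compresses large folds. Each probe set had been centred: the deposited log2 values lie between -4.092 and 6.128, with an exact 0 in 54.5% of probe sets. The baseline was not the median of these arrays, which was exactly 0 in 8.01% of probe sets. The number of arrays limits the precision.

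The platform annotation names 1 symbol for 21789 of 28856 probe sets and several for 1621, and 5446 are unnamed here. The mean was taken for 999 genes with several probe sets, which left 19938 genes. Groups came from sample titles. All 19 arrays entered 1 limma fit (version 3.58.1, R 4.3.3) of 7 group means, with 12 residual degrees of freedom (prior 4.62, prior SD 0.145). Two-sided p-values were adjusted over all genes in each comparison (Benjamini-Hochberg), with a threshold of 0.05. Mesenteric HEC were the mean of both gates. Errors beside differences are standard errors of this fit. Differences between 2 members on the same array were tested by exact permutation. Both tests were checked on simulated data. No batch, slide or scan date is given in the labels.

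The members, gene lists and tests were chosen with earlier results of these data known. All 9 members are described, with up to 4 called genes of largest change from each other list. Insr, with a smaller change, is named besides as the called gene of its list that rose. Cav3, Cavin3 and Cavin4 are named as relatives of members. For each member the 3 genes most like it are given, among named genes other than predicted genes and sensory receptors. Alternatives were to leave out each array in turn or peripheral capillary arrays 1 and 2, to block on the replicate number, to repeat quantile normalization, to centre arrays on their median, to weight arrays by quality, to use a robust prior or the most variable probe set of a gene, to fit the compared groups alone, and to filter genes on their range. Python 3.11.15 with matplotlib 3.10.9 drew the figures.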

Additional observations from a re-analysis of the deposited data

Results flagged for a closer look

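The difference of Ehd4 between HEC and capillary cells was not the same in all tissues by a test of the interaction. Peyer's patches minus mesenteric nodes gave a log2 value of -0.98, and Peyer's patches minus peripheral nodes gave -0.73 (limma, adjusted p = 0.023 and 0.034). Both comparisons use the Peyer's patch arrays, where Ehd4 capillary signal was above every other array, and both calls were lost without single arrays, as named above. No array stood apart from the others of its group among the 9 sets tested, which were the members in peripheral HEC, the only group of 4 or more arrays.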

How the results depend on the processing

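The 7 calls over the mean of tissues were kept in every fit without 1 array. The calls of Ehd3 and Cavin2 in each tissue were kept under every alternative run. Leaving out 1 array gave 4 to 6 called members in peripheral nodes, 4 to 6 in mesenteric nodes and 6 to 7 in Peyer's patches. Between tissues, 1 to 3 members were called for Peyer's patch against peripheral HEC. Mesenteric against peripheral HEC and Peyer's patch against mesenteric HEC gave 0 to 1 each. Peyer's patch capillary cells gave 1 to 2 against peripheral and 0 to 2 against mesenteric ones. The interactions of Peyer's patches with peripheral and mesenteric nodes gave 0 to 2 and 0 to 1. The number of all genes called moved too. The Peyer's patch minus peripheral interaction called 808 of all genes with all arrays. It called 505 without Peyer's patch capillary array 2 and 2921 without Peyer's patch HEC array 3. These ranges are therefore no result about the members alone. Within arrays, Cav1 minus Cav2 ran from 0.36 to 0.51, Cav1 minus Cavin1 from -0.0040 to 0.038, Cav1 minus Plvap from -0.23 to -0.17, Ehd1 minus Ehd2 from 0.19 to 0.28, Ehd1 minus Ehd4 from -0.11 to 0.0045 and Ehd2 minus Ehd4 from -0.33 to -0.25.

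The labels do not say whether equal numbers pair arrays. Deviations of same-numbered arrays correlated at a median of 0.0834, with 17 of 41 pairs over 0.1. Those of other-numbered arrays had a median of -0.0132, with 37 of 112 over 0.1. The check cannot exclude a shared preparation, because the mesenteric HEC gates carry unlike numbers (1 and 2, 3 and 4). With the replicate number as a block, 2 members were called for mesenteric against peripheral HEC, where 570 of all genes were. Peyer's patch against mesenteric HEC gave 1 member and 153 of all genes. Peyer's patch against peripheral capillary cells gave 2 members and 999 of all genes, and the interaction of these tissues 2 and 705. In the same order, the main fit called 537, 239, 925 and 808 of all genes. Cav1 in peripheral nodes had an adjusted p of 0.0569 in limma with the block.

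In the order of Peyer's patch against peripheral HEC, mesenteric against peripheral HEC, Peyer's patch against mesenteric HEC, Peyer's patch against peripheral capillary cells and the Peyer's patch minus peripheral interaction, array quality weights gave 5, 2, 3, 2 and 3 members. These weights stopped before their tolerance and called 11209, 1199, 7138, 1516 and 6443 of all genes in these comparisons, against 1326, 537, 239, 925 and 808. Fitting only the compared groups gave 1 member for Peyer's patch against peripheral HEC, 2 for the same tissues in capillary cells and 0 for the interaction. Of all genes, these fits called 743, 682 and 623. The filter on range kept 8720 genes and 8 members by the 95th percentile of 1227 sensory receptor genes (0.771). With it, 1 member was called for Peyer's patch against mesenteric HEC and 2 for Peyer's patch against peripheral capillary cells. The interaction gave 2, and Peyer's patch against mesenteric capillary cells gave 2. In the same order, 228, 934, 743 and 390 of the genes kept were called. Without peripheral capillary arrays 1 and 2, peripheral HEC against capillary cells gave 2 members, both capillary comparisons of Peyer's patches gave 2, and Ehd4 over tissues was 0.019. Of all genes, these 3 comparisons then called 2655, 354 (against peripheral) and 389 (against mesenteric). After quantile normalization Cav1 minus Plvap was -0.22 and Ehd1 minus Ehd2 was 0.25, both now called (exact permutation test, adjusted p = 0.0374). Median centring left Cav2 in peripheral nodes at -0.44 (limma, adjusted p = 0.0550). Beyond what construction shows (fewer genes or arrays), the cause was not tested.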

Other observations

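Mesenteric HEC arrays differed within each gate in a way that crossed the gates. Array 1 of the MAdCAM1+ PNAd+ gate and array 3 of the MAdCAM1+ gate read 0.11 and -0.02 for Ehd1, 0.02 and 0.19 for Ehd2, 3.07 and 3.14 for Ehd3 and -0.02 and 0 for Cav1. Arrays 2 and 4 read -0.61 and -0.79 for Ehd1, -0.31 and -0.24 for Ehd2, 2.73 and 2.64 for Ehd3 and -0.27 and -0.24 for Cav1. For Cav2 the lower array in each gate was the other one, with -0.58 and -0.40 on arrays 1 and 3 against -0.30 and -0.0092 on arrays 2 and 4. The labels give no batch for these arrays, and this split was seen in the values. If arrays 1 and 3, and 2 and 4, shared a preparation, the 4 would be fewer independent samples than the tests of mesenteric HEC assume.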
